A study of Mus musculus and Rattus norvegicus with 11 samples.

Results

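Vascular smooth muscle cells of the healthy mouse nerve, named vSMC in the deposited annotation, were described in dissociated sciatic nerve and brachial plexus of C57BL/6 mice. They were the cells with that deposited name in the C57BL/6 libraries, 271 of the 5198 C57BL/6 barcodes that carry a cell type name and of 15672 named mouse barcodes in all. The 3 C57BL/6 libraries, SC1, SC3 and SC4, held 86, 178 and 7 of them, and they held 62, 164 and 3 pericytes, named PC, the type set beside them throughout. The C57BL/6 mice were undiseased and carried no stated transgene or treatment. They were perfused with saline before dissection. Nerves were digested with enzymes, myelin debris was removed, and live cells were sorted by viability dyes. The labels give neither age nor sex, nor do they say whether a library pools animals, so the spread between libraries may be technical. NOD control mice and NOD mice labelled ICAM-1-/- (a model of chronic autoimmune neuritis) share 1 deposited name, vSMC/PC, for both kinds of mural cell and enter only where the C57BL/6 pattern was looked for in them.

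Smooth muscle cells wrap arteries, arterioles and veins and set vessel diameter by contraction, whereas pericytes lie along capillaries within the same basement membrane as the endothelium. In smooth muscle, calcium bound to calmodulin activates myosin light chain kinase, the phosphorylated light chain lets myosin pull on actin, and myosin phosphatase reverses the step. Calcium comes through the plasma membrane and from the sarcoplasmic reticulum, into which the pump SERCA returns it under the brake of phospholamban. Many contractile genes are driven by serum response factor, which binds a promoter sequence known as the CArG box together with myocardin.

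Each cell was measured by droplet sequencing of transcript 3' ends, in which a unique molecular identifier (UMI) marks each captured molecule, so levels were not divided by transcript length. Levels are UMIs of a gene per 1000000 UMIs summed over the cells of a type in a library (CPM). The vSMC sums were 66999, 333512 and 10964 UMIs in SC1, SC3 and SC4, and those of PC 38445, 199645 and 2678. Means and ratios rest on SC1 and SC3 (n = 2), which held at least 20 cells of both types, and SC4 is given by its own values. The cell type names came from clusters of these same cells, so the comparison with PC is a description and was not tested. Intervals cover counting error only. The median vSMC held 755, 1832.5 and 1713 UMIs in SC1, SC3 and SC4, against 620.5, 1192 and 815 in PC, higher in vSMC in 3 of 3 libraries (mean difference 558 ± 388 UMIs, SD; exact two-sided sign-flip permutation test, p = 0.25, the smallest p that 3 pairs allow). SC1 stood apart from SC3 and SC4 in the share of UMIs from mitochondrial genes, at a median of 1.92% against 5.39% and 5.46% in vSMC and 1.19% against 4.35% and 3.47% in PC. No barcode of a vSMC was shared between libraries, and 10 and 3 barcodes of all kinds were shared by SC1 with SC3 and by SC3 with SC4.

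The vSMC made up 7.20% of named cells in SC1 (95% Clopper-Pearson interval 5.80 to 8.82%), 4.93% in SC3 (4.24 to 5.68%) and 1.79% in SC4 (0.723 to 3.65%), a mean of 4.64 ± 2.72% (SD, n = 3). SC4 was also the library richest in leukocytes among its named cells, and without leukocytes the shares were 9.64%, 5.33% and 3.55%. Within mural cells, vSMC were 58.1%, 52.0% and 70.0% in SC1, SC3 and SC4. How fully each type was released from the tissue was not measured, so these are shares of the cells recovered.

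The 5 marker genes of vascular smooth muscle were all highest in the cells of that name. Acta2, smooth muscle alpha-actin, had 12358, 12602 and 14320 CPM in vSMC of SC1, SC3 and SC4, against 1379 and 1688 CPM in PC of SC1 and SC3. Myh11, the smooth muscle myosin heavy chain, had 1060, 1445 and 821 CPM in vSMC, against 130 and 85.2 CPM in PC. The vSMC libraries lay above the PC libraries without overlap for both genes, with ratios of mean CPM of 8.14 and 11.6. Pln, which encodes phospholamban, had 627, 744 and 1094 CPM in vSMC and no UMI in PC of any library, which puts it at least 57.5-fold higher in vSMC with 3 UMIs allowed over the pooled PC. Cnn1, calponin 1, an actin-binding protein of smooth muscle, had 89.6, 153 and 456 CPM in vSMC and no UMI in PC, at least 11.3-fold higher in vSMC on the same footing. Gpr20, an orphan G protein-coupled receptor, had 224, 189 and 547 CPM in vSMC and 1 UMI in all PC (pooled ratio 46.4, 95% interval 8.08 to 1855). The 5 markers together came to 14746 CPM in vSMC and 1643 CPM in PC, and to at most 171 CPM in each of the 7 other C57BL/6 types with enough cells for a mean. Pln lies at chr10:53337667-53345987 (+) and overlaps Cep85l on the other strand, and Gpr20 lies at chr15:73694604-73707505 (-) (GRCm38). Whether reads were assigned by strand is not given in the sources used here.

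**Figure D1:**
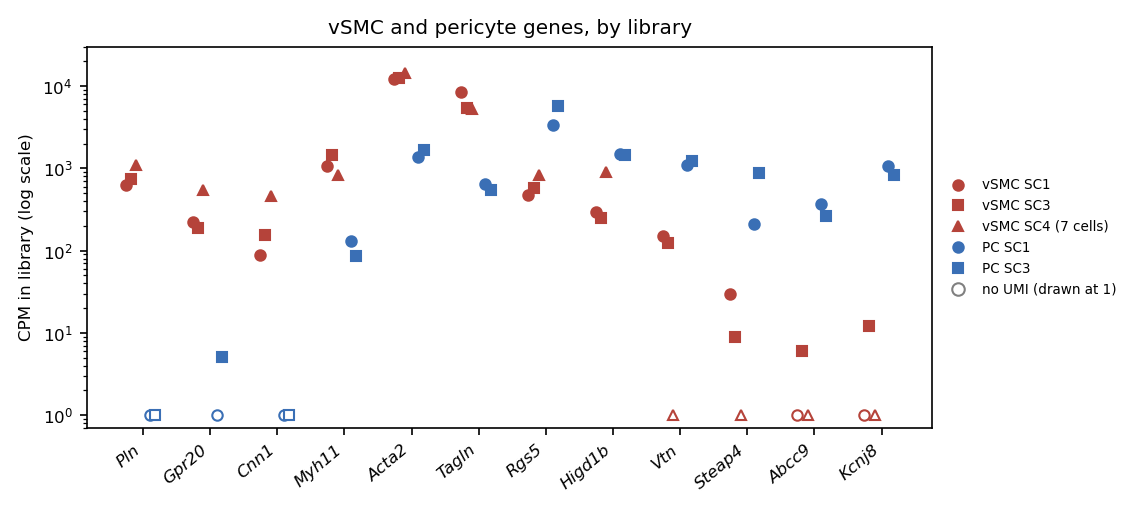
Level of 6 smooth muscle and 6 pericyte genes (CPM, log axis) in vSMC (red, left of each pair) and PC (blue), each point 1 library; hollow points mark no UMI and are drawn at 1, and PC of SC4 (3 cells) is not drawn. Pln and Cnn1 have no UMI in PC, Acta2 is at 12358 CPM or more in every vSMC library, and Kcnj8 reaches at most 12.0 CPM in vSMC.

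Single cells differed in the same way. A UMI of Acta2 was found in 98.9% of vSMC (96.8 to 99.8%), against 51.5% of PC, 9.44% of the endothelial type EC1 and 0.601% of the T cell type TC, which should lack it. For Myh11 the shares were 75.6% in vSMC, 8.73% in PC and 0.300% in TC, and for Pln 52.0% in vSMC, with 0 of 229 PC, which allows up to 1.31% (3 cells of 229). These shares pool the libraries. In vSMC of SC1 and SC3 they were 53.5% and 86.5% for Myh11, and 33.7% and 60.1% for Pln. Median depths were 1548 UMIs in vSMC, 1017 in PC and 912 in TC. Each cell was also thinned to 500 UMIs, with 7 vSMC and 11 PC left out. The shares were then 97.7% in vSMC and 40.4% in PC for Acta2, and 45.8% in vSMC and 5.05% in PC for Myh11. For Pln the thinned share was 26.5% in vSMC, with no PC. By library, thinned vSMC of SC1 and SC3 were at 45.6% and 46.6% for Myh11, and at 29.1% and 24.7% for Pln. At least 1 UMI of Pln, Gpr20 or Cnn1 was seen in 181 of 271 vSMC, against 1 of 229 PC. Conversely, a UMI of Kcnj8 or Abcc9, the pericyte potassium channel genes, was seen in 5 of 271 vSMC, against 141 of 229 PC. Both kinds together occurred in 2 vSMC and 1 PC, and neither in 87 vSMC and 88 PC.

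The contractile genes took a large part of each vSMC. Genes of a 45-member contractile list (actin, myosin, tropomyosin and their partners) made up a median 6.32% of a cell's UMIs in vSMC, with the lowest at 1.94% and the highest at 13.3%. In PC the median was 1.86%, and in every other named type it was 1.05% or less. The distributions hardly met, since 5 of 271 vSMC lay below the 90th percentile of PC (2.86%) and 8 of 229 PC lay above the 10th percentile of vSMC (3.87%). Medians were 6.69%, 5.97% and 6.07% in vSMC of SC1, SC3 and SC4, against 1.82%, 1.90% and 1.51% in PC.

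**Figure D2:**
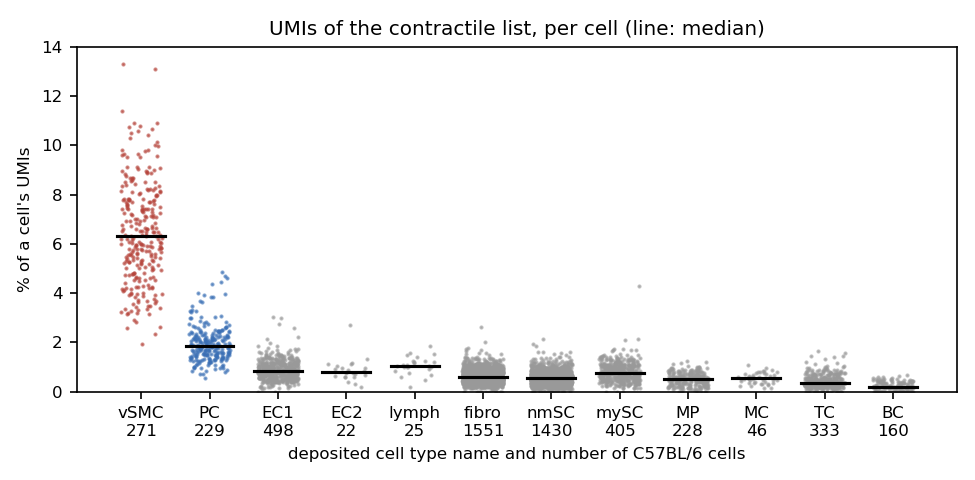
Share of each C57BL/6 cell's UMIs that came from the 45-gene contractile list (%), by deposited cell type, each point 1 cell and the line the median, with the number of cells under each name. The vSMC median is 6.32% and the PC median 1.86%.

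Across the transcriptome, 4092 genes had at least 20 UMIs in vSMC and PC together. Of these, 549 (13.4%) were at least 2-fold higher in mean CPM in vSMC and higher in both libraries, and 634 (15.5%) were at least 2-fold lower and lower in both. The median gene lay 0.12 below 0 on the log2 scale (-0.12), and the 10 most abundant genes held 19.98% of vSMC UMIs. With library sizes scaled by TMM the median was 0.10 and the counts became 660 higher and 459 lower. SC3 carried most of the depth: without it 727 genes were left to compare, 115 of them higher and 78 lower in vSMC. The list counts given without SC3 below rest on these. With cells thinned to 500 UMIs 1755 genes were left, on which the list counts after thinning rest. In both settings a member can drop out of a count by falling under the limit of 20 UMIs. Counting error alone can carry a gene near the limit of 20 UMIs past the fold, so the counts of each list are read against these background shares, and list medians against -0.12.

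Of the 45 contractile genes, 41 were compared: 26 were higher in vSMC, 6 lower and 9 neither, with a median log2 ratio of 1.64 (17 higher and 3 lower without SC3). Summed over the list, vSMC of SC1, SC3 and SC4 had 71195, 62750 and 59832 CPM, against 19560 and 20682 CPM in PC of SC1 and SC3. Beside Acta2 and Myh11, the most abundant were the light chains and the actin binders. Myl6, the essential light chain of myosin, had 12135 and 9631 CPM in vSMC of SC1 and SC3, against 2653 and 2474 CPM in PC (4.24-fold higher in vSMC). Myl9, the regulatory light chain that the kinase phosphorylates, had 9388 and 8797 CPM in vSMC, against 2783 and 3827 CPM in PC. Tagln, the actin-binding protein SM22, had 8403 and 5409 CPM in vSMC, against 650 and 546 CPM in PC, an 11.5-fold higher mean in vSMC. None of these groups overlapped. Tpm2, a tropomyosin, averaged 5211 CPM in vSMC and 807 CPM in PC; Mustn1, a small nuclear protein of muscle and skeletal tissue, 3729 CPM in vSMC and 509 CPM in PC; and Dstn, the actin-severing protein destrin, 2637 CPM in vSMC and 273 CPM in PC.

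The regulators of the light chain were also higher in vSMC. Mylk, the light chain kinase, had 1269 and 1223 CPM in vSMC, against 312 and 245 CPM in PC. Ppp1r14a, an inhibitor of myosin phosphatase also known as CPI-17, had 1194 and 882 CPM in vSMC, against 130 and 80.1 CPM in PC. Of the subunits that target the phosphatase to myosin, Ppp1r12a averaged 480 CPM in vSMC and 219 CPM in PC, and Ppp1r12b had 80 UMIs in vSMC and 2 in PC (pooled ratio 23.8, 6.37 to 200). Flna, the actin cross-linker filamin A, averaged 838 CPM in vSMC and 108 CPM in PC, and Lmod1, which nucleates actin filaments in smooth muscle, 456 CPM in vSMC and 96.6 CPM in PC. Intermediate filaments were divided: Des, desmin, had 716 and 675 CPM in vSMC, against 780 and 571 CPM in PC, and so overlapped. Synm, its partner synemin, had 41 UMIs in vSMC and 2 in PC (pooled ratio 12.2, 3.17 to 104).

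Of the list, 6 genes were lower in vSMC. Myh9, a nonmuscle myosin heavy chain, averaged 46.3 CPM in vSMC and 188 CPM in PC. The widely expressed light chain genes Myl12a and Myl12b averaged 392 and 123 CPM in vSMC, against 1186 and 489 CPM in PC; their coding sequences are nearly alike, so the split of reads between them is uncertain. Tpm4 averaged 132 CPM in vSMC and 436 CPM in PC, Tagln2 151 CPM in vSMC and 397 CPM in PC, and Cnn3 145 CPM in vSMC and 365 CPM in PC. Each was lower in vSMC in both libraries, by 2.51-fold for Cnn3 to 4.05-fold for Myh9. Beside them stand Myh11, Myl9, Tpm2, Tagln and Cnn1, members of the same families, which were 2.75-fold to at least 11.3-fold higher in vSMC.

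Promoters are shown for 3 abundant contractile genes, for Fbxl22, which encodes an F-box protein of the sarcomeric Z-disc, and for Pln, which had the highest ratio of vSMC to PC among genes higher in vSMC. Each window holds 250 bases before and 50 after the annotated start, 5' to 3' on the gene's strand, from RefSeq on GRCm38.p6. They are Acta2 at chr19:34255324-34255623 (-), Myl9 at chr2:156775214-156775513 (+), Myl6 at chr10:128492960-128493259 (-), the second of its 2 annotated starts (the window of the first held no match), Fbxl22 at chr9:66514544-66514843 (-) and Pln at chr10:53337436-53337735 (+). Capitals mark matches to the CArG box, that is CC, a core of 6 bases and GG, where the core is A or T throughout or, in the loose form, holds at most 1 G or C; the search covers both strands.
Acta2: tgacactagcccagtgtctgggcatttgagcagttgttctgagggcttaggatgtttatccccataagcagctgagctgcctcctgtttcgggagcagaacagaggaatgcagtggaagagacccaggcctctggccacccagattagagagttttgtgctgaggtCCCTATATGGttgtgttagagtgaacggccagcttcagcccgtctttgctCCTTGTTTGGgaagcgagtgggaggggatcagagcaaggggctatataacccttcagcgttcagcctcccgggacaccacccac
Myl9: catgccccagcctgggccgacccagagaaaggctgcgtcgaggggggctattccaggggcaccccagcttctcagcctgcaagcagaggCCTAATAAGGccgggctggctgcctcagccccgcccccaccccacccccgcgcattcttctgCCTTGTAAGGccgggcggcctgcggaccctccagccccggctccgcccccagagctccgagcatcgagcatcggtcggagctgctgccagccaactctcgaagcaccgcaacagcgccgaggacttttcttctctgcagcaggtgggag
Myl6: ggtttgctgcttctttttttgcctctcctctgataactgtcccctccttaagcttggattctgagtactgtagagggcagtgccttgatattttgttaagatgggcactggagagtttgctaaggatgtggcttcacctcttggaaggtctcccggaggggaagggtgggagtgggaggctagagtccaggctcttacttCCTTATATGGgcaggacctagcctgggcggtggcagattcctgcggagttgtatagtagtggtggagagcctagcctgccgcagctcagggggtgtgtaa
Fbxl22: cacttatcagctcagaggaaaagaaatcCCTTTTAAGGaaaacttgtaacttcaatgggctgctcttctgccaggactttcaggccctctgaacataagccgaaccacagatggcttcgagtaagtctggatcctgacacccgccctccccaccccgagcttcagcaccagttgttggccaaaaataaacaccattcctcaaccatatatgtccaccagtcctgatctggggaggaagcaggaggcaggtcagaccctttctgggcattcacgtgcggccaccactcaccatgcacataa
Pln: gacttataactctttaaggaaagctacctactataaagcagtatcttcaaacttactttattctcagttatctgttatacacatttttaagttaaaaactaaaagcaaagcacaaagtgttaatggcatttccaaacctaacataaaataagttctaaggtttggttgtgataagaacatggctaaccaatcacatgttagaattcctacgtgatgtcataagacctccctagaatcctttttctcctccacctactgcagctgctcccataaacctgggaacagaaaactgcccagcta

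The Acta2 window held 2 loose boxes, which begin 84 and 34 bases before the start. In Myl9 they begin 161 and 99 bases before the start, the first of them strict, and the strict boxes of Myl6 and Fbxl22 begin 50 and 222 bases before it. The Pln window held no match. Among contractile genes higher in vSMC whose windows are not shown, those of Tpm2, Mustn1, Mylk, Cnn1, Flna and Lmod1 held none either. Tagln and Myh11 had no listed window. The windows shown are therefore not typical of the contractile list. A window was listed for 22 of the 26 contractile genes that were higher in vSMC; 3 of them (13.6%) held a strict box and 7 (31.8%) a strict or loose one. Over all 27025 genes with a window the shares were 1.81% for a strict box and 11.3% for either form, and over all 32851 listed windows 1.63% and 9.98%. The genes higher in vSMC with a window held a strict box in 14 of 414 (3.38%) and either form in 16.2%. Those lower held a strict box in 10 of 490 (2.04%) and either form in 11.4%, and the compared genes a strict box in 73 of 3211 (2.27%) and either form in 11.6%. None of the 7 pericyte genes lower in vSMC with a window held a box. A match is a string of letters and shows no binding, and these lists were not tested against each other.

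Of 30 genes of calcium and cyclic GMP handling, 21 were compared and 9 were higher in vSMC, against the background of 13.4%, none lower and 12 neither (median log2 ratio 0.90), and without SC3 4 were higher. Casq2, which binds calcium within the sarcoplasmic reticulum, had 179 and 237 CPM in vSMC, from 91 UMIs, and 1 UMI in PC (pooled ratio 54.1, 9.47 to 2160). Atp2a2, the SERCA pump that phospholamban restrains, had 343 and 336 CPM in vSMC, against 0 and 105 CPM in PC. Jph2, a junctophilin that ties the reticulum to the plasma membrane, had 33 UMIs in vSMC and 2 in PC (9.81, 2.51 to 84.4). Casq2, Atp2a2, Jph2 and Pln are also genes of heart muscle. Pde3a, a phosphodiesterase of cyclic AMP inhibited by cyclic GMP, averaged 286 CPM in vSMC and 35.6 CPM in PC, and Calm2, a calmodulin gene, 3060 CPM in vSMC and 1273 CPM in PC. The receptor subunits for nitric oxide, Gucy1a1 and Gucy1b1, averaged 329 and 189 CPM in vSMC, against 284 and 348 CPM in PC, neither past 2-fold. The ryanodine receptor Ryr2 had 4 UMIs in vSMC and none in PC, too few to compare.

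Potassium channels were split between the types. Of 22 ion channel genes 13 were compared, 4 higher, 3 lower and 6 neither in vSMC, with a median log2 ratio of 0.05. Without SC3, 1 was higher and 1 lower, and with cells thinned to 500 UMIs 2 were higher. Kcna5, the voltage-gated channel Kv1.5, had 74.6 and 177 CPM in vSMC and no UMI in PC (at least 12.7-fold higher in vSMC). Kcnab1, a beta subunit of such channels, had 59.7 and 216 CPM in vSMC and 1 UMI in PC (45.2, 7.87 to 1808). In vSMC Kcnj8, the pore of the ATP-sensitive potassium channel, had 0 and 12.0 CPM, against 1066 and 836 CPM in PC, a 159-fold higher mean in PC. Its regulatory subunit Abcc9 had 2 UMIs in vSMC and 67 in PC (56.4-fold higher in PC, 15.004 to 475). In SC1 and SC3 vSMC lay below PC for both genes of this channel. For Kcna5 and Kcnab1 vSMC lay above PC in SC3. In SC1 both were seen in vSMC only, at levels under the 96.0 CPM that no UMI in PC allows, so SC1 does not place them. The SC4 vSMC, with no UMI of Kcnj8 or Abcc9, were too shallow to place for Abcc9 (upper limit 336 CPM). Kcnmb1, the smooth muscle subunit of the calcium-activated potassium channel, had 19 UMIs in vSMC and none in PC, just under the limit for comparison. Gja4, a gap junction gene, had 328 and 285 CPM in vSMC, against 312 and 281 CPM in PC, and so overlapped.

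Receptors for vasoactive signals were divided between vSMC and PC. Of 35 receptors and G protein regulators, 20 were compared, with 10 higher, 6 lower and 4 neither in vSMC (median log2 ratio 0.98), and without SC3 4 were higher and 2 lower. Ramp1, the partner that makes a receptor for calcitonin gene-related peptide, had 537 and 357 CPM in vSMC, against 0 and 50.1 CPM in PC. A UMI of Ramp1 was seen in 39.5% of vSMC, 2.62% of PC and 15.3% of TC, where its mean was 213 CPM. Olfr558, an odorant receptor gene, had 89.6 and 330 CPM in vSMC, against 26.0 and 20.04 CPM in PC, and its relative Olfr78 had 28 UMIs in vSMC and none in PC. Rasd1, a Ras-like G protein induced by glucocorticoids, averaged 832 CPM in vSMC and 137 CPM in PC. The pericyte side held the alpha-2A adrenergic receptor Adra2a, with 1 UMI in vSMC and 52 in PC (87.5-fold higher in PC, 15.02 to 3521), and the angiotensin receptor Agtr1a, with 8 UMIs in vSMC and 94 in PC. The alpha-1A receptor Adra1a had 9 UMIs in vSMC and none in PC, under the limit. Regulators of G protein signalling went opposite ways: Rgs4 averaged 687 CPM in vSMC and 237 CPM in PC, Rgs5 528 CPM in vSMC and 4604 CPM in PC, and Rgs16 4.50 CPM in vSMC and 499 CPM in PC. The endothelin receptor Ednra averaged 97.3 CPM in vSMC and 114 CPM in PC.

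Notch signalling is needed for mural cells to mature, and transcripts of its receptor and ligand were found in both types. Notch3, the mural receptor, had 328 and 387 CPM in vSMC, against 598 and 471 CPM in PC, lower in vSMC in both libraries but not past 2-fold, and its ligand Jag1 averaged 254 CPM in vSMC and 253 CPM in PC. Of its target genes, Heyl averaged 61.4 CPM in vSMC and 279 CPM in PC, whereas Hey2 had 29 UMIs in vSMC and 1 in PC (17.2, 2.86 to 704). Nrip2, a nuclear receptor-interacting protein, had 1149 and 950 CPM in vSMC, against 182 and 140 CPM in PC. Of the 28 genes of Notch, PDGF and TGF-beta signalling, 16 were compared, 5 higher, 2 lower and 9 neither (median log2 ratio 0.37), and 2 were higher and 1 lower without SC3, and 3 higher after thinning. The second lower gene was Pdgfrb, the receptor that recruits mural cells to vessels, at 154 CPM in vSMC and 554 CPM in PC.

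Among 33 transcription factors of mural cells, 31 symbols were in the files and 17 were compared, with 7 higher, 4 lower and 6 neither in vSMC (median log2 ratio 0.47), and 4 were higher without SC3 or after thinning, with 1 lower without SC3. Klf2, a shear-responsive factor, averaged 465 CPM in vSMC and 71.1 CPM in PC, Tbx2 157 CPM in vSMC and 50.6 CPM in PC, and Zfhx3 345 CPM in vSMC and 113 CPM in PC. Ebf1 averaged 486 CPM in vSMC and 1333 CPM in PC, and Nr2f1 16.5 CPM in vSMC and 156 CPM in PC. Mef2c, at 727 CPM in vSMC and 526 CPM in PC, passed neither limit. The myocardin gene Myocd, with 4 UMIs in vSMC and 1 in PC, and Srf, with 13 UMIs in vSMC and 6 in PC, could not be compared at this depth. Outside the list, Tcf15, a bHLH factor, had 433, 312 and 274 CPM in vSMC of SC1, SC3 and SC4 and no UMI in PC, at least 26.4-fold higher in vSMC. It was seen in 34.3% of vSMC, in 0 of 229 PC and in 0 of 333 TC, and the next type, EC1, had 15.2 CPM.

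Matrix genes differed in both directions. The 48 matrix and basement membrane genes summed to 6015 and 9538 CPM in vSMC, against 9910 and 15117 CPM in PC; 36 were compared, 10 higher, 9 lower and 17 neither (median log2 ratio 0.14), and 3 were higher without SC3 or after thinning, with 4 lower without SC3. Eln, which encodes elastin, had 47 UMIs in vSMC and 2 in PC (13.97, 3.66 to 119). Lama5, a laminin chain, had 30 UMIs in vSMC and 2 in PC, and Bcam, a laminin receptor, averaged 643 CPM in vSMC and 219 CPM in PC. Sparcl1 averaged 1515 CPM in vSMC and 407 CPM in PC, while its relative Sparc, a collagen-binding matrix protein, averaged 1065 CPM in vSMC and 4746 CPM in PC. The collagen VI genes Col6a1 and Col6a2 averaged 13.5 and 29.9 CPM in vSMC, against 137 and 179 CPM in PC. Col3a1 averaged 166 CPM in vSMC and 659 CPM in PC.

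**Figure D3:**
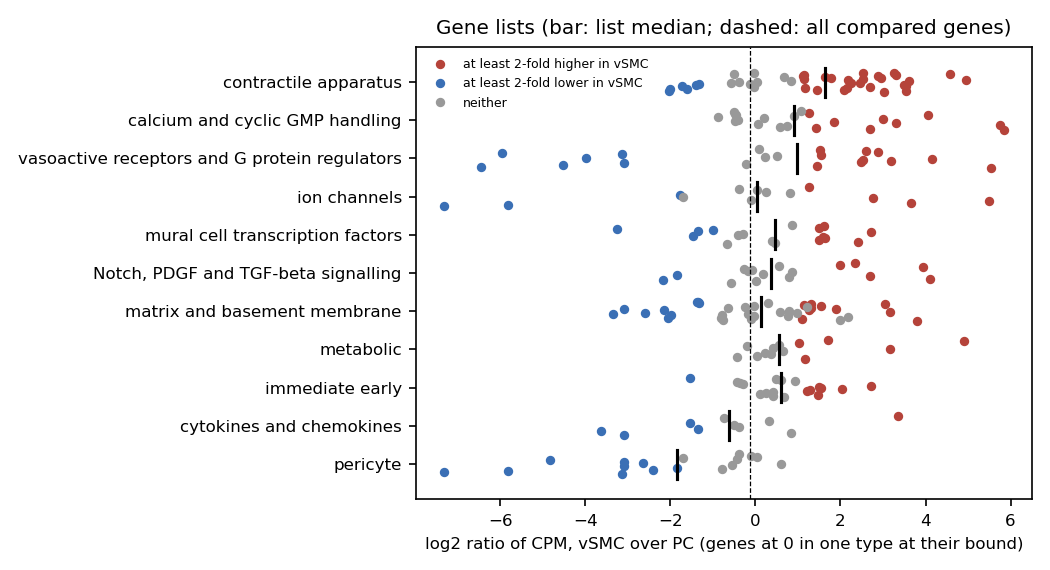
Log2 ratio of CPM, vSMC over PC, of the compared members of 11 gene lists, each point 1 gene, red where at least 2-fold higher and blue where at least 2-fold lower in vSMC; black bars are list medians and the dashed line is the median of all compared genes (-0.12). The contractile median is 1.64 and the pericyte median -1.85.

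Pericyte genes marked the other side. Of 20, 17 were compared, with 9 lower in vSMC (background 15.5%), none higher and 8 neither, and a median log2 ratio of -1.85 (5 lower without SC3). Rgs5, with 478 and 579 CPM in vSMC, against 3407 and 5800 CPM in PC, kept a UMI in 30.3% of vSMC (18.6% after thinning), against 91.3% of PC and 0 of 333 TC. Higd1b, a mitochondrial protein of pericytes, averaged 274 CPM in vSMC and 1460 CPM in PC; Vtn, vitronectin, 136 CPM in vSMC and 1162 CPM in PC; and Steap4, a metalloreductase, 19.4 CPM in vSMC and 550 CPM in PC. The SC4 vSMC had 821 CPM of Rgs5 and no UMI of Vtn, Steap4, Abcc9 or Kcnj8. Cox4i2, at 665 CPM in vSMC and 437 CPM in PC, and Ndufa4l2, at 1512 CPM in vSMC and 2226 CPM in PC, were not past 2-fold. Ifitm1, an interferon-induced membrane protein outside the list, had 44.8 and 60.0 CPM in vSMC, against 4162 and 2174 CPM in PC (60.5-fold higher mean in PC). Also outside it, Ntm, a neural adhesion protein, had 1 UMI in vSMC and 63 in PC, and Colec11, a collectin, 8 UMIs in vSMC and 91 in PC. The antisense gene Gm14964 had 1 UMI in vSMC and 49 in PC. It overlaps Nrxn2 on the other strand, and whether any of its UMIs stem from Nrxn2 was not tested. Arhgdib and Fhl2 had 3 UMIs each in vSMC, against 58 and 56 in PC.

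Against the other C57BL/6 types, 128 of the 1853 genes with at least 30 vSMC UMIs (6.91%) were at least 2-fold higher in vSMC than in every other type with a mean. The widest gaps, by ratio to the type with the highest mean, included genes of striated muscle. Such a ratio is large where 1 UMI falls in a deeply sampled type. Against PC, with no UMI, the bounds were 7.33-fold for Myl1 and 8.32-fold for Tcap. Myl1, a light chain of fast skeletal muscle, had 134, 84.0 and 91.2 CPM in vSMC of SC1, SC3 and SC4, no UMI in PC and 1 UMI in fibro, the next type. Tcap, the titin cap protein of the Z-disc, had 89.6 and 108 CPM in vSMC, no UMI in PC and 1 UMI in EC1. Ldb3, a Z-disc protein, had 29 UMIs in vSMC and none in PC. Pdlim3, of the same family, averaged 251 CPM in vSMC and 5.01 CPM in PC. Of 11 skeletal muscle markers, 7, among them Myh1, Ttn and Acta1, had no UMI in vSMC, and Myl1 held 37 of the list's 42 vSMC UMIs in SC1 and SC3. Fbxl22 had 567 and 468 CPM in vSMC, against 0 and 30.1 CPM in PC, and Map3k7cl 373 and 411 CPM in vSMC, against 0 and 10.0 CPM in PC. Perp, a membrane protein of desmosomes in epithelia, averaged 106 CPM in vSMC, with no UMI in PC and 4 UMIs in nmSC, the next type with enough cells for a mean, but the few cells of the type EC2 held 10 UMIs, or 371 CPM. The antisense gene Atcayos had 34 UMIs in vSMC and none in PC. It overlaps Atcay and Nmrk2 on the other strand, and whether any of its UMIs stem from them was not tested. Fabp4, a fatty acid binding protein that separated vSMC from PC, was shared with another type, at 305 CPM in vSMC and 1332 CPM in EC1. Olfml2a, Rnd1, Plekho1 and Mcur1 had 38 to 58 UMIs in vSMC and 1 each in PC. Rnd1 and Plekho1 were shared with another type, with means in vSMC 1.17 times that in EC1 and 1.33 times that in MP. Olfml2a and Mcur1 had means in vSMC 3.46 times that in nmSC and 3.26 times that in mySC, their next types.

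**Figure D4:**
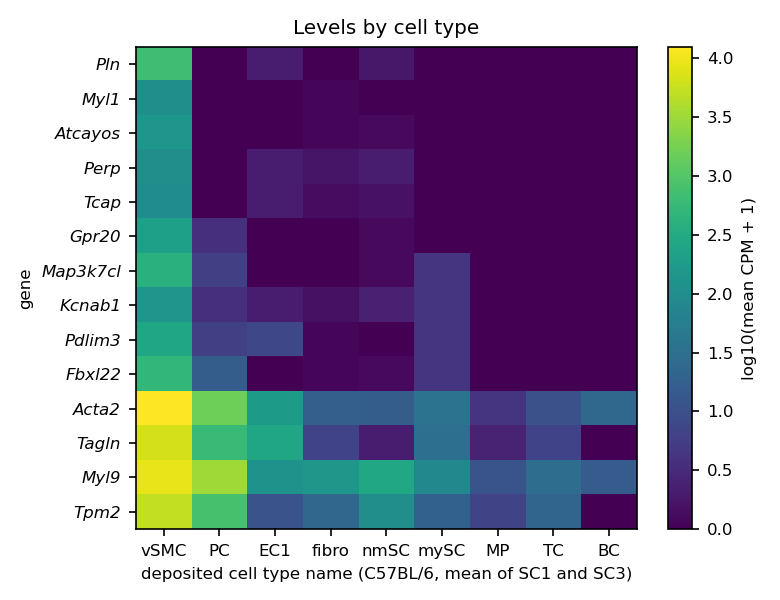
Level, as log10(mean CPM + 1) over SC1 and SC3, of the 10 genes with the widest gap between vSMC and the next C57BL/6 type and of 4 abundant contractile genes, in the 9 types with enough cells, vSMC first and PC second. The 10 genes have at most 15.03 CPM in the other types drawn (Fbxl22 in PC), while Acta2 and Myl9 are also high in PC, at 1533 and 3305 CPM.

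By abundance, vSMC were led by the nuclear RNA Malat1, at 97672 CPM in vSMC and 103746 CPM in PC, and by Crip1, a small LIM protein, at 26320 CPM in vSMC and 6511 CPM in PC. Acta2, Myl6, Myl9 and Tagln were the contractile genes among the 10 most abundant, with Actb at 13740 CPM in vSMC and 7374 CPM in PC. The remaining 3 were mt-Atp6, mt-Co3 and Rpl41, at ratios of mean CPM of 1.25, 1.23 and 1.03. In SC1 alone, mt-Atp6 had 4508 CPM in vSMC and 2991 CPM in PC, and mt-Co3 3821 CPM in vSMC and 2393 CPM in PC. Of 18 metabolic genes, 17 were in the files under 1 identifier and 13 were compared, 5 higher, none lower and 8 neither in vSMC (median log2 ratio 0.55), 2 higher without SC3. Ndufa4, a subunit of cytochrome oxidase, had 1015 and 965 CPM in vSMC, against 26.0 and 195 CPM in PC. The mean of its paralogue Ndufa4l2 was lower in vSMC, but not past 2-fold. Ckb, a creatine kinase, averaged 909 CPM in vSMC and 408 CPM in PC.

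Markers of other cell types were low in vSMC. Of 14 leukocyte markers 1 was compared and passed neither limit, and of 12 endothelial markers 3 were compared. Ly6c1, with 32 UMIs in vSMC and 3 in PC, was higher in vSMC, Emcn, with 1 UMI in vSMC and 24 in PC, lower, and Esam neither. Of the others, Pecam1 and Cdh5 had 4 and 1 UMIs in vSMC and none in PC. Erythroid and adipocyte markers had no UMI in vSMC, and the 8 perineurial markers summed to 64.3 CPM in vSMC and 38.5 CPM in PC. Of 12 Schwann markers 1 was compared, Pmp22, at 97.3 CPM in vSMC and 570 CPM in PC. Fibroblast markers were the exception: 9 of 10 were compared and 5 were higher in vSMC, none lower, with a median log2 ratio of 1.09 (2 higher without SC3). Dcn, decorin, had 269 and 1127 CPM in vSMC of SC1 and SC3 and no UMI in the SC4 vSMC, against 52.0 and 361 CPM in PC, and it averaged 42802 CPM in the cells named nmSC and 13125 CPM in those named fibro. This excess lay in few barcodes. Without the 7 vSMC and 2 PC barcodes that Scrublet called doublets, Dcn averaged 178 CPM in vSMC and 0.872 times the PC level, and no fibroblast marker passed as higher in vSMC (0 in place of 5). The summed list then came to 547 and 1780 CPM in vSMC of SC1 and SC3, where it had been 1284 and 4519 CPM, against 702 and 2306 CPM in PC. Apod, Mfap5 and the modulated smooth muscle gene Ly6a lost their higher call in the same way, Lum came to 0.313 times the PC level and counted as lower, Col3a1 moved to 53.9 CPM in vSMC, and the ratio of Col6a2 to 0.111 in place of 0.167.

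Of 14 genes of modulated smooth muscle, the state that cells take up in injured arteries, 8 were compared, 4 higher, 1 lower and 3 neither. They summed to 662 CPM in vSMC and 524 CPM in PC. Thbs1, thrombospondin 1, averaged 178 CPM in vSMC and 23.0 CPM in PC, Lgals3, galectin 3, 89.8 CPM in vSMC and 23.0 CPM in PC, and the defining gene Spp1 had 3 UMIs in vSMC and 2 in PC. Of 23 cytokine genes, 22 were in the files under 1 identifier and 10 were compared, with 1 higher, 4 lower and 5 neither in vSMC (median log2 ratio -0.62). Ccl11 averaged 61.4 CPM in vSMC (35.1 CPM without doublets) and 763 CPM in PC, Il34, a ligand of the macrophage receptor CSF1R, 157 CPM in vSMC and 454 CPM in PC, and Cxcl1 421 CPM in vSMC and 1079 CPM in PC. The higher one was the growth factor Fgf1, with 40 UMIs in vSMC and 4 in PC. With so few UMIs a limit of 50 UMIs leaves it out before any comparison. The call was also absent without SC3 and after thinning, where fewer genes had enough UMIs to compare.

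Immediate early genes, which enzymatic dissociation can induce, were compared for 19 of 20 members, 7 higher, 1 lower and 11 neither in vSMC (median log2 ratio 0.61), and none lower without SC3 or after thinning. Their sum was 13955 and 18446 CPM in vSMC, against 9104 and 12487 CPM in PC and 39478 CPM in the Schwann type mySC. In SC4 the sum was 5472 CPM in vSMC, from 60 UMIs, and 1494 CPM in PC, from 4 UMIs. Atf3 averaged 923 CPM in vSMC and 319 CPM in PC, and Fos, the most abundant, 4543 CPM in vSMC and 2841 CPM in PC, not past 2-fold. Klf2 and Nr4a1, counted above with the transcription factors, belong to this list too, and its part in their difference was not tested. Of 11 heat shock genes 9 were compared, 1 higher and 2 lower in vSMC. Of 10 proliferation genes 1 was compared, Pcna, and passed neither limit. Of 44 patterning genes of the Hox clusters 5 were compared, and 1, the antisense gene Hoxb3os, was lower in vSMC. Of 12 compared mitochondrial transcripts 1 was higher in vSMC, and of 86 compared ribosomal protein genes 1 was higher and 1 lower.

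In the NOD libraries mural cells carry the joint name vSMC/PC. Of 76 such cells in NOD control mice, at a median of 606 UMIs, 21 held a UMI of Pln, Gpr20 or Cnn1, 20 a UMI of Kcnj8 or Abcc9, none held both and 35 held neither. The 14 such cells of the mice labelled ICAM-1-/-NOD held a UMI of Pln, Gpr20 or Cnn1 in 0 cells and of Kcnj8 or Abcc9 in 4, with 10 holding neither, which is too few to compare.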

How the data were processed

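Droplet 3' single-cell RNA sequencing (10x Genomics, version 2 chemistry) of mouse nerve was used. The deposited mouse matrix holds UMI counts as the authors made them, for 31053 genes and 16050 barcodes, beside a cell type name for most barcodes. Alignment and counting used Cell Ranger 3.0.2 and mm10, per the submitters' processing notes. No source used here gives the annotation release, the clustering behind the names, or whether doublets or free RNA were removed. Coordinates are from GENCODE vM21 (GRCm38), which held 31011 of the 31053 gene identifiers.

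Counts were summed per library and cell type in Python 3.11.15 (pandas 2.3.3, scipy 1.17.1, numpy 2.4.6) and divided by the summed UMIs to give CPM. Libraries were grouped by the strain in the labels. The ratio of vSMC to PC is that of mean CPM; with 1 to 3 UMIs in a type it is the ratio of pooled rates with an exact 95% interval, and with none a bound with 3 UMIs allowed over the pooled type. A gene was compared with at least 20 UMIs in both types together. It counted as higher or lower with a 2-fold ratio and the same direction in both libraries. The rule was run on simulated counts with counting error only and changes larger than 2-fold, in genes above the limit of 20 UMIs. That run cannot show how the rule performs at 2-fold, near 20 UMIs or with variation between libraries. TMM factors came from edgeR 4.0.16 in R 4.3.3, and doublets were called with Scrublet in scanpy 1.11.5 per library (4, 51 and 1 barcodes in SC1, SC3 and SC4) but kept. Depth limits precision: the range of summed UMIs was 66999 to 333512 in vSMC and 38445 to 199645 in PC of SC1 and SC3.

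The members and gene lists were chosen with earlier results of these data known. Genes named are the 5 markers, the 15 highest and 10 lowest ratios to PC (30 UMIs or more), the 10 widest gaps to the next type, the 10 most abundant, and up to 6 members per list; further list members were named after their values were seen. Not every gene within this rule is reported here. Promoter windows are RefSeq's (GRCm38.p6). The NOD libraries enter 1 comparison, and the rat samples were not used here.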

Additional observations from a re-analysis of the deposited data

How the results depend on the processing

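The ratio of the 5 markers' mean CPM, vSMC over PC, was 8.97, and 10.5 with TMM-scaled library sizes. With no filter on low counts, 1031 genes were higher and 1556 lower in vSMC, which is 8.45% and 12.8% of 12203 compared. At 50 UMIs or more the numbers were 220 and 236 (11.7% and 12.6% of 1875). With cells thinned to 500 UMIs they were 209 and 257 (11.9% and 14.6% of 1755). At 4-fold they were 221 and 178 (5.40% and 4.35% of 4092). The shares in the main setting were 13.4% and 15.5%. With single libraries left out, the higher genes ranged from 115 to 549 and the lower from 78 to 634, contractile genes higher from 17 to 27 and pericyte genes lower from 5 to 10. The low ends came without SC3 (replicate 3), where 727 genes were left to compare. As a share of mural cells, vSMC averaged 60.1%. Thinning to 500 UMIs gave shares of cells with a UMI of 26.5% for Pln, 45.8% for Myh11, 5.68% for Cnn1 and 10.98% for Gpr20 in vSMC, and of 5.05% for Myh11 and 40.4% for Acta2 in PC. The marker ratio, the shares of cells with a UMI and the contractile and pericyte counts kept their direction. The balance of all genes did not. Higher genes were fewer than lower ones in the main setting (549 and 634). They were more numerous with TMM (660 and 459), at 4-fold and without SC3. Single genes changed too. Without doublets Dcn, Apod, Lum, Ly6a and Mfap5, called higher in vSMC, came to 0.872, 0.653, 0.313, 0.946 and 0.662 times the PC level. Mfap5 came to 0.731 times without cells of 2 or more endothelial UMIs. The median log2 ratio of all compared genes changed sign with TMM (0.10 in place of -0.12), and genes with no call near equality crossed it too. Alternatives for the gene lists by TMM, doublets, endothelial UMIs, thinning and 50 UMIs were chosen after seeing the data. Among them the call of higher fibroblast markers ended without doublets (0 in place of 5), while contractile genes higher and pericyte genes lower stayed within 1.5 times their counts. Omitting cells with 2 or more endothelial UMIs left out 33 vSMC and 36 PC. The C57BL/6 and NOD groups share some replicate numbers. No paired analysis was possible because no test compared these groups. Within C57BL/6, vSMC and PC came from the same libraries, so they could be paired by library. A call needed the same direction in both libraries, but the ratio of mean CPM does not use the pairing. For Myh11 it was 11.6, against ratios of 8.15 within SC1 and 17.0 within SC3. The comparison of genes was not tested, and the median depths of vSMC and PC, the 1 measure tested, were paired by library.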
